A study of Mus musculus with 4 samples.

Results

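The genes described here are 37 genes of the amino acid response driven by the transcription factor ATF4. They were chosen by name, with earlier results of these data known. They comprise the pathway's transcription factors, its brakes, feedback genes and other targets, amino acid transporters, enzymes of amino acid and folate metabolism, and cytosolic tRNA synthetases. All 37 were found among the 35275 genes of the count table, and 31 of them reached 2 CPM (counts scaled to the library total) in at least 1 library and are called measured. RNA was sequenced from thymocytes of C57BL/6 mice aged 6 to 8 weeks, untreated and sorted by flow cytometry into 2 populations that follow each other during selection: group 2 with intermediate surface T cell receptor β and high CD69 (TCRβint CD69hi), and group 3 with high receptor and high CD69 (TCRβhi CD69hi). Each population came from mice with floxed Uba3 (Uba3F/F, given as wild type in the labels and called WT here) and from Uba3ΔT mice (given as Uba3-/-, called KO here), in which the gene for the catalytic subunit of the NEDD8-activating enzyme is deleted in T cells. The Cre driver, the number of mice behind a library and any pooling are not given in the sources used here. Each of the 4 groups held 1 library, so no difference between 2 libraries has a replicate check. A cell type entry of the labels places both WT libraries in group 2 and both KO libraries in group 3, against the sample titles, and the titles were used.

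ATF4 is made when the initiation factor eIF2 is phosphorylated by stress kinases, among them GCN2, which senses uncharged tRNA. It is controlled largely at translation, so the level of its mRNA does not report its activity. With C/EBP partners it binds composite C/EBP-ATF elements and raises genes that import and make amino acids and charge tRNAs, together with genes that restrain growth or shut the response off. In the thymus, cells that have just been selected take up amino acids through transporters such as the CD98 heterodimers of SLC3A2 and SLC7A5.

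The core of the C/EBP-ATF element was looked for in the promoters, since it is the sequence that ATF4 with a C/EBP partner is known to bind. RefSeq promoter windows of GRCm38.p6, 250 bases before to 50 after a transcription start, were matched by symbol for 31 of the 37 members, and Eif4ebp1, Slc7a5, Slc1a5, Cars, Nars and Wars had no entry. The 8 letters TGATGNAA, on either strand, were present in 11 of the 31 (35.5%), against 1219 of all 27025 genes with a window (4.51%). As the members were listed as genes of the ATF4 response, this difference is descriptive and is no test. The palindrome TGACGTCA, the ATF and CREB site, was present in 1 of the 31 (Ppp1r15a, 3.23%) and in 549 of all genes (2.03%). No match to one overlapped a match to the other. Below, each printed match is in capitals with 10 bases on each side, written 5′ to 3′ on the strand of the gene, with capitals in reverse complement where the match is to the other strand:
Trib3, chr2:152344029-152344056, minus strand: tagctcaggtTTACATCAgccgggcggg
Atf3, chr1:191183426-191183453, minus strand: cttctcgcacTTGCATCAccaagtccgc
Nupr1, chr7:126625563-126625590, minus strand: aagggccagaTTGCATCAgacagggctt
Vldlr, chr19:27216810-27216837, plus strand: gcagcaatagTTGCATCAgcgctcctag
Chac1, chr2:119351039-119351066, plus strand: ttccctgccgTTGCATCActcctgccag
Asns, chr6:7693215-7693242, minus strand: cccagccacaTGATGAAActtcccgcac
Pycr1, chr11:120643834-120643861, minus strand: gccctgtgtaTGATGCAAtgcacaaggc
Slc1a4, chr11:20332700-20332727, minus strand: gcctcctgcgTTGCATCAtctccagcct
Aars, chr8:111033841-111033868, plus strand: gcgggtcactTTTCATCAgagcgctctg
Gars, chr6:55037961-55037988, plus strand: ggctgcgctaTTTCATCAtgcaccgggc
Tars, chr15:11399656-11399683, minus strand: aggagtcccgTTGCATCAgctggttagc
Ppp1r15a, chr7:45526263-45526290, minus strand: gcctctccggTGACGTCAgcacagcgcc

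**Figure D1:**
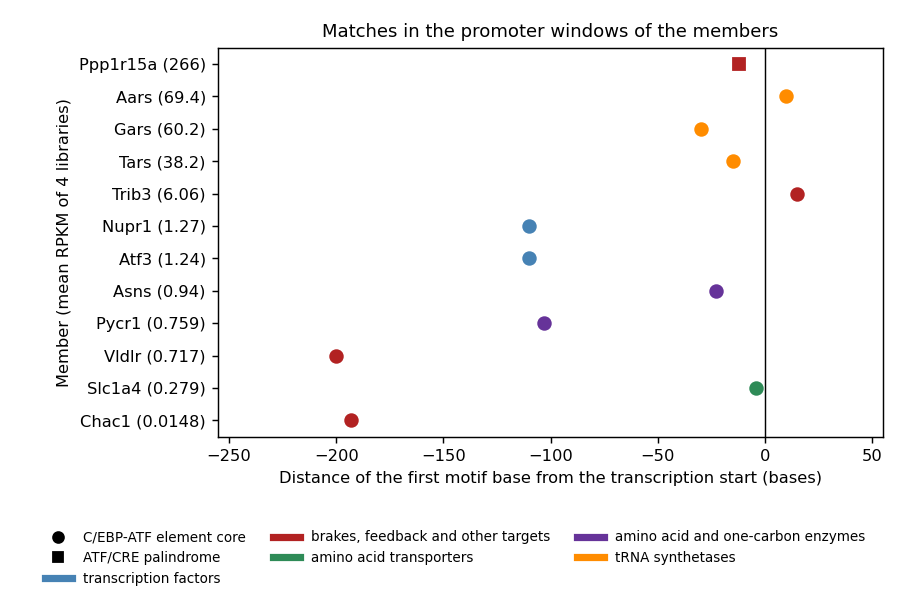
Distance in bases (x axis) of the first base of each printed match from the transcription start, for the 12 members with a match, ordered by mean RPKM of the 4 libraries (in brackets). Circles mark the C/EBP-ATF core and the square the ATF/CRE palindrome, coloured by role. The matches shown for Trib3 (15) and Aars (10) lie after the start.

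Of the 11 members with the C/EBP-ATF core in a window, 4 were below the measured level (Chac1, Asns, Slc1a4 and Pycr1), against 2 of the 20 without it. A match describes letters only, and its absence says nothing about the factor. Of the members called for genotype below, Trib3 alone holds the core in its window, Cebpb, Sesn2, Ppp1r15a and Slc3a2 do not, and Slc1a5 had no entry.

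The libraries held 8043077 to 10299863 counts. The deleted gene itself did not follow the genotype labels. Uba3 had 453 counts in WT group 2, 356 in WT group 3, 647 in the group 2 library labelled KO and 856 in the group 3 library labelled KO, so it was higher under the KO label in both populations. The test described below also called Uba3 higher under the KO label (edgeR, adjusted p 2.65e-05), as did DESeq2 and limma-voom. A count over the whole gene does not separate deleted from kept exons, and KO below means the libraries that carry this label. Between 20440 and 23925 genes had at least 1 count, with 23325 in WT group 3 and 23925 in KO group 2 against 20440 in WT group 2, the deepest library, and 20521 in KO group 3. Thymocyte markers (Cd3d, Cd3e, Cd3g, Cd69, Cd4, Cd8a, Cd8b1, Lck, Zap70, Cd5 and Ccr7) summed to between 13803 and 15741 CPM per library. Of 15 mitosis genes 14 fell under the KO label by the test described below, and of 13 measured immediate early genes, which tissue handling also induces, 6 rose. Markers of dendritic, B, epithelial, stromal and erythroid cells summed to between 6.29 (dendritic cells, WT group 2) and 538 CPM (erythroid cells, KO group 2), and 0 were called by edgeR, DESeq2 or limma-voom, with 1 B cell and 2 erythroid markers at an unadjusted edgeR p under 0.05. In these bulk libraries, fewer cells of a type and less RNA per cell cannot be told apart.

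Thymocytes of both populations expressed the serine synthesis gene Phgdh, Atf4 and the eIF2 phosphatase subunit gene Ppp1r15a strongly. They expressed the asparagine and proline enzymes Asns and Pycr1 weakly, at means of 0.940 and 0.759 RPKM. Levels between genes are compared as deposited RPKM (counts scaled to gene length and library total), and given as the mean and range of the 4 libraries. Phgdh, which opens serine synthesis, had the highest mean of the members at 276 RPKM (257 to 304). It was followed by Ppp1r15a (266, from 195 to 360), Atf4 (167, from 159 to 190) and Slc3a2 (115, from 88.6 to 142). The gene lengths behind these RPKM are shorter than the annotated exons for most members, 1053 against 6583 bases for Cars. Per kilobase of all annotated exons Ppp1r15a, Atf4 and Phgdh still took the highest 3 ranks and Slc3a2 the fourth, while Aars moved from rank 8 to 17 and Cars from 13 to 20.

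At the low end, Chac1, a glutathione-degrading enzyme, had 1 count in WT group 2 and 0 in the other libraries. Asns, asparagine synthetase, had 9, 9, 7 and 9 counts in WT group 2, WT group 3, KO group 2 and KO group 3, the order used for all lists of 4 values below. Stc2, a secreted glycoprotein, had 0, 6, 2 and 0 counts. The factor Atf5 had 10, 0, 2 and 7. The neutral amino acid transporter Slc1a4 had 10, 15, 9 and 5, and Pycr1, the last enzyme of proline synthesis, 9, 6, 16 and 2. These 6 members enter no count of measured members below.

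**Figure D2:**
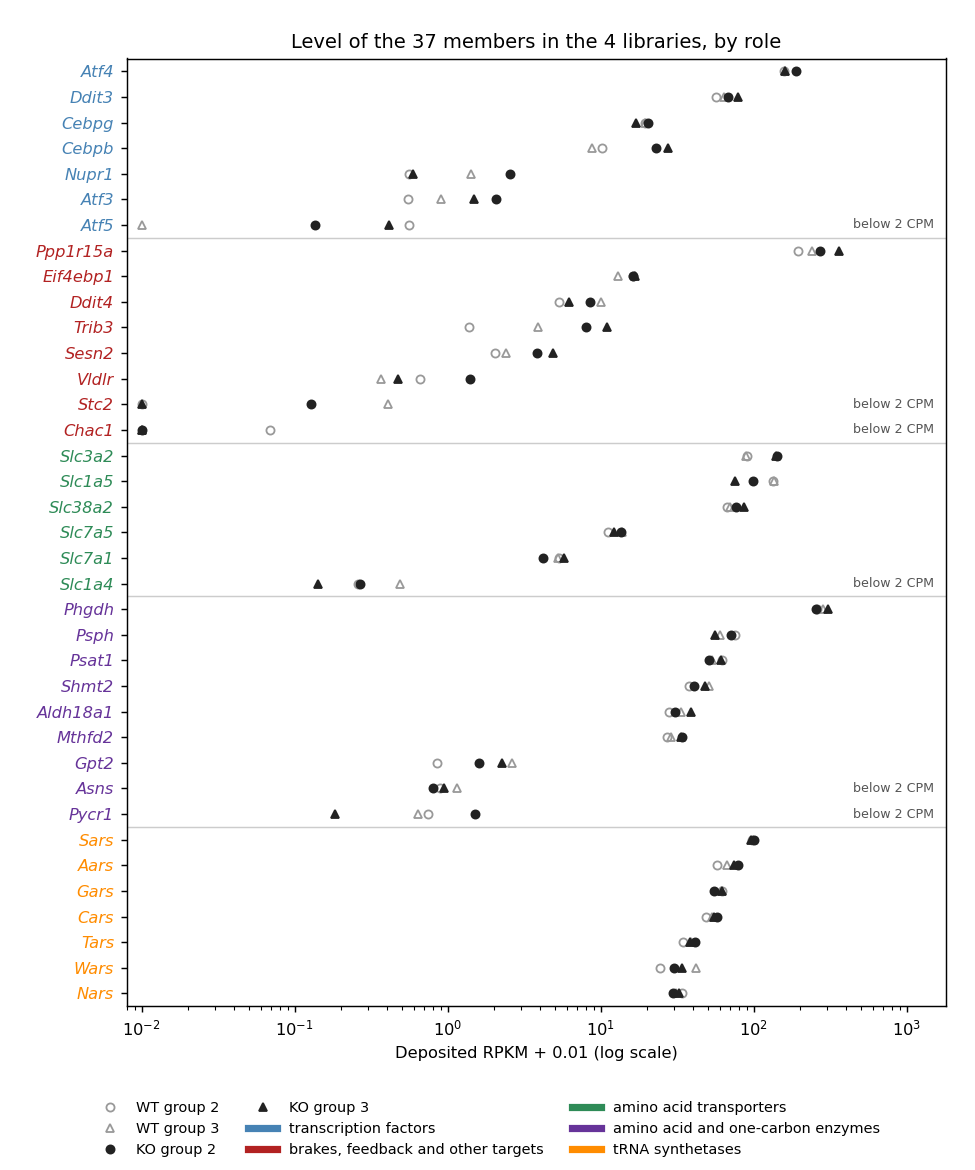
Deposited RPKM plus 0.01 on a log scale (x axis) for all 37 members, grouped by role, with names coloured by role and ordered by mean; open symbols are WT, filled are KO, circles are group 2 and triangles group 3. Phgdh, Ppp1r15a and Atf4 sit above 100 in all 4 libraries, and the 6 members below 2 CPM in all libraries are marked.

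The genotype comparison sets the libraries labelled KO against those labelled WT in each population. Of the 31 measured members, 5 rose under the KO label (Trib3, Cebpb, Sesn2, Slc3a2 and Ppp1r15a), 1 fell (Slc1a5) and 25 did not pass the test. The test was edgeR's quasi-likelihood fit of sorted group plus genotype over all measured genes, with Benjamini-Hochberg adjustment at 0.05; it called 2.95% of the 12490 measured genes higher and 1.87% lower. Its error is pooled over all genes from the difference of the genotype effect between the populations. It is not the spread between mice, so a small p does not carry over to other animals. A small p also does not show that a gene's ratios were alike in the 2 populations. DESeq2 called 3 members higher (Cebpb, Slc3a2 and Ppp1r15a; 1% of all measured genes) and 0 lower (0.432%). With limma-voom the same 3 were higher (2.51%) and Slc1a5 was lower (1.49%). At an unadjusted edgeR p under 0.05 were 8 members (13.2% of all measured genes). The median fitted log2 effect of the 31 was 0.18, against 0.00 over all measured genes, and it was above 0 in 25 of them. As the members were chosen with earlier results of these data known, their counts and medians beside all measured genes are descriptive only.

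**Figure D3:**
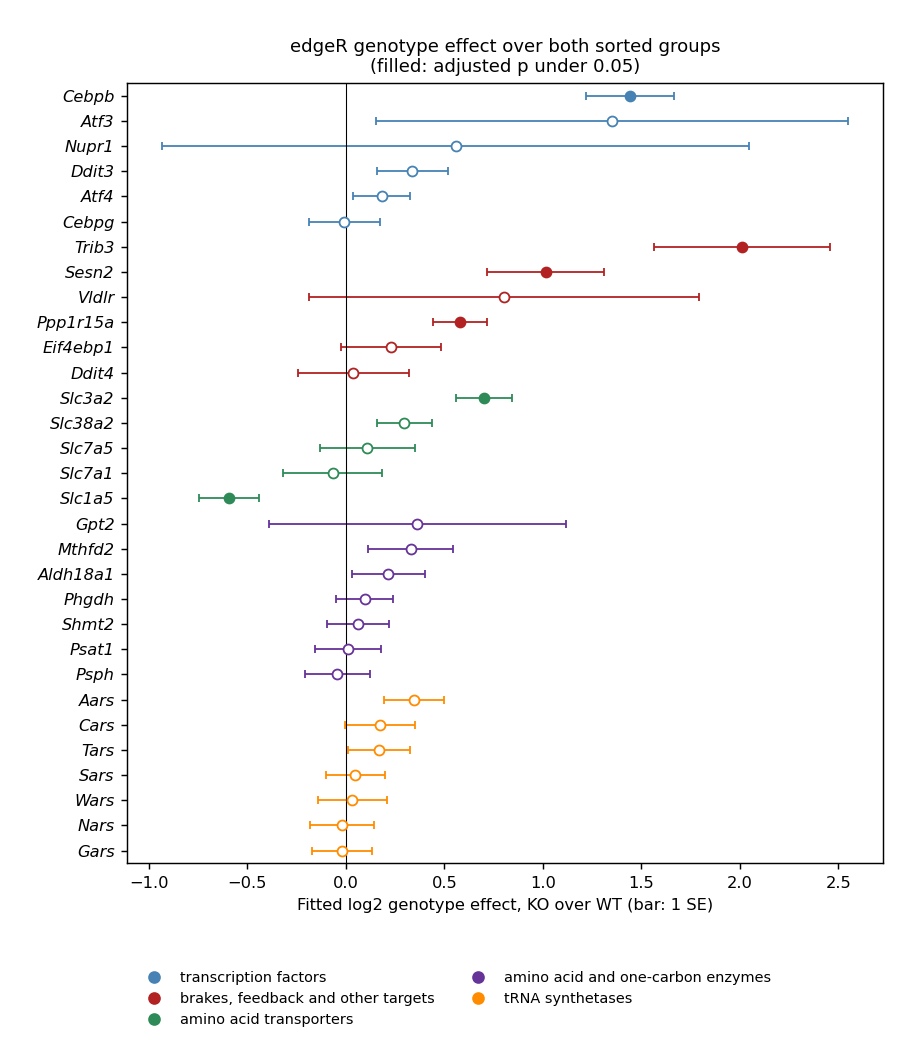
Fitted log2 genotype effect, KO over WT (x axis, bars are 1 standard error), for the 31 measured members by role. Filled points passed the adjusted threshold: Trib3, Cebpb, Sesn2, Slc3a2 and Ppp1r15a above 0 and Slc1a5 below 0; the enzymes and tRNA synthetases all lie between -0.04 and 0.36.

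Pair by pair, the members' folds were compared as ratios of CPM scaled by trimmed mean of M-values (TMM), with 95% intervals for counting error only. In group 2 the median log2 ratio of the 31 was 0.32, with 25 above 0, against 0.00 over all measured genes. In group 3 it was 0.15, with 22 above 0, against -0.01. Past 2-fold, with intervals that left out 1, 5 members were higher in group 2 (7.61% of all measured genes) and 0 lower (3.31%), and 3 were higher in group 3 (2.52%) and 0 lower (6.5%). Of the 5 in group 2, Atf3 and Nupr1 reached 2 CPM in KO group 2 alone, so their place among the measured members rests on the library in which they are high. Among the 27 members with 10 CPM in at least 1 library, 2 were higher in group 2 (Cebpb and Trib3), against 188 of all 9101 genes at that level. Over all 4 libraries, 15 members had both KO values above both WT values (18.8% of all measured genes) and 1 had both below (19.7%). In both populations with intervals excluding 1, 9 were higher (10% of all genes): Ddit3, Cebpb, Trib3, Sesn2, Ppp1r15a, Slc3a2, Slc38a2, Mthfd2 and Aars. Only Slc1a5 was lower in both (8.54%), and 3 went opposite ways (9.5%). The 2 ratios use separate libraries, which may come from the same mice.

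**Figure D4:**
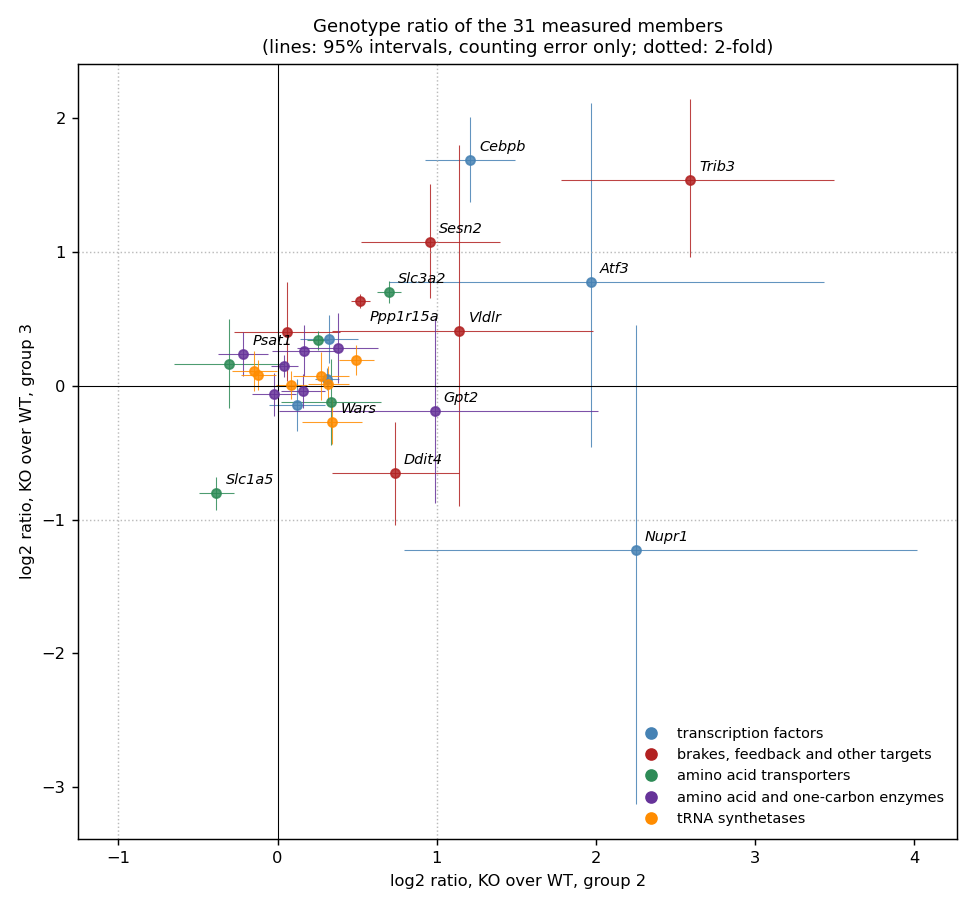
Log2 ratio of KO over WT in group 2 (x axis) against group 3 (y axis) for the 31 measured members, coloured by role, with 95% intervals for counting error only; dotted lines mark 2-fold. Trib3, Cebpb and Sesn2 lie at the upper right, Slc1a5 at the lower left, and Nupr1 and Ddit4 are above 0 in group 2 and below 0 in group 3.

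Among the transcription factors, Cebpb rose, Atf4 itself did not pass the test, and the stress factors Atf3 and Nupr1, at 5 to 23 counts per library, did not either. Cebpb (ENSMUSG00000056501, chromosome 2, 167688915 to 167690418 in mm10) encodes a C/EBP protein that pairs with ATF4. It stood at 15.1, 13.0, 35.0 and 41.9 CPM. Both KO libraries were above both WT libraries. The ratio was 2.31 in group 2 (interval 1.90 to 2.82) and 3.22 in group 3 (2.60 to 4.03), and the fitted log2 effect was 1.44 (SE 0.22; edgeR, adjusted p 3.15e-08). It stayed called with DESeq2 (adjusted p 0.00224) and with limma-voom. It also passed with each library left out in turn (edgeR, adjusted p 0.00929 to 0.0499), but those fits leave a genotype with 1 library and hold genotype alone, so their spread comes from a pair of libraries of different populations.

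Cebpb is also a gene of macrophages and of the immediate early response, and the sums of both marker lists were higher under the KO label. Not every gene on them was: the fitted effect was above 0 in 8 of the 9 measured macrophage markers. Among the measured immediate early genes it was above 0 in 10 of 13. The 12 macrophage markers, 9 of them measured, summed to 60.2 and 74.2 CPM in WT and 96.4 and 109 CPM under the KO label. Of these markers C1qb alone was called, and by edgeR only. No macrophage marker was at 0 in all libraries, and at most 1 was at 0 in any library. The 8 neutrophil markers, 4 of them measured, summed to 2.67, 2.21, 1.47 and 42.6 CPM, high in KO group 3 alone. Of the neutrophil markers, edgeR called 2 higher under the KO label (Ngp and Ltf), DESeq2 0 and limma-voom 1. The 14 immediate early genes summed to 4290 and 5790 CPM in WT and 6486 and 8097 under the KO label. Their part in the Cebpb result was not tested. Exons of Tmem189 on the other strand cover 20.7% of the Cebpb exons, and as the counting is not stated to use strand, reads there cannot be told apart; Tmem189 had 458, 402, 436 and 615 counts.

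Atf4 (chromosome 15, 80255184 to 80257541) stood at 268, 271, 333 and 280 CPM, with KO group 2 above the other libraries. Its ratio was 1.24 in group 2 (1.18 to 1.31) and 1.03 in group 3 (0.978 to 1.10), and it was not called (edgeR, fitted log2 0.18, SE 0.14, adjusted p 0.702). Ddit3, the pro-death factor CHOP, stood at 45.5, 51.5, 57.0 and 65.7 CPM, with both KO values above both WT values, and was not called (0.34, SE 0.18). Its ratio was 1.25 in group 2 (1.10 to 1.42) and 1.28 in group 3 (1.13 to 1.45). Cebpg, a C/EBP partner of ATF4, stood at 52.7, 53.1, 57.4 and 48.1 CPM, a fitted effect of -0.01 (SE 0.18).

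Atf3, a stress-induced repressor, had 7, 9, 23 and 18 counts. Its ratio was 3.91 in group 2 (1.62 to 10.8) and 1.71 in group 3 (0.731 to 4.33), and its fitted effect of 1.35 had an SE of 1.20. Nupr1, a small stress-induced chromatin protein, had 5, 10, 20 and 5 counts, highest in the 2 libraries in which more genes had a count. Its ratio was 4.76 in group 2 (1.73 to 16.2) and 0.428 in group 3 (0.115 to 1.37). With 1 library per group, library and population cannot be told apart at any level, and the counts of these 2 genes are also low.

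**Figure D5:**
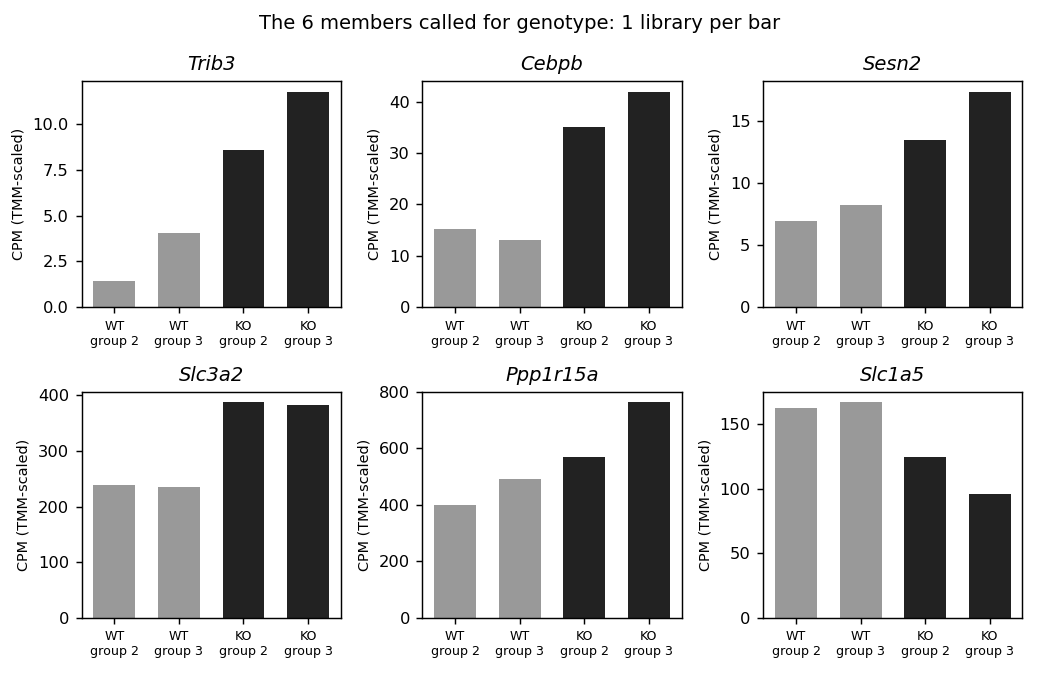
TMM-scaled CPM (y axis, from 0) of the 6 members called for genotype, 1 bar per library, grey for WT and black for KO. Both KO bars stand above both WT bars for Trib3, Cebpb, Sesn2, Slc3a2 and Ppp1r15a, and below them for Slc1a5, at 124 and 95.7 against 162 and 167.

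Of the 6 measured brakes, feedback genes and other targets, Trib3, Sesn2 and Ppp1r15a rose. These 3 restrain AKT signalling, mTORC1 and eIF2 phosphorylation in turn. The mTORC1 inhibitor Ddit4 and the translation repressor Eif4ebp1 did not pass. Trib3 (ENSMUSG00000032715, chromosome 2, 152337422 to 152344032), a pseudokinase that also binds ATF4, had the largest fitted effect of the members. It had 15, 33, 76 and 112 counts, or 1.43, 4.05, 8.61 and 11.8 CPM, with both KO values above both WT values. The ratio was 6.02 in group 2 (3.43 to 11.3) and 2.91 in group 3 (1.96 to 4.42). The ratio in group 3 was 0.483 of that in group 2 (0.227 to 0.989, counting error only). The fitted log2 effect was 2.01 (SE 0.45; edgeR, adjusted p 4.69e-04), with an adjusted p of 0.0881 by DESeq2 and 0.0591 by limma-voom. With genotype alone in the model it was called without WT group 3 (edgeR, adjusted p 0.0203) and not without any other library, with adjusted p up to 0.558.

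Sesn2 (ENSMUSG00000028893, chromosome 4, 132492032 to 132510501), a leucine sensor that holds back mTORC1, stood at 6.95, 8.22, 13.5 and 17.3 CPM. The KO libraries did not overlap the WT libraries. Its ratio was 1.94 (1.44 to 2.63) in group 2 and 2.11 (1.58 to 2.84) in group 3, and it rose by 1.01 (log2, SE 0.30; edgeR, adjusted p 0.0182), with an adjusted p of 0.536 by DESeq2 and 0.0606 by limma-voom. The Sesn2 call was also lost with edgeR's own filter (edgeR, adjusted p 0.0623), at 10 CPM (0.0587), with every gene of 1 count or more kept (0.0653) and with genotype as the sole model term (0.264). Ppp1r15a (ENSMUSG00000040435, chromosome 7, 45522916 to 45526268) encodes GADD34, which brings a phosphatase to eIF2 and ends the response. It stood at 398, 491, 571 and 763 CPM. Both KO values were above both WT values, and within each label group 3 was above group 2. The ratio was 1.43 (1.38 to 1.495) in group 2 and 1.55 (1.49 to 1.61) in group 3, with a fitted effect of 0.58 (SE 0.14; edgeR, adjusted p 0.00136). Ppp1r15a is also induced by handling, and the sum of the immediate early genes above was higher under the KO label. Their part was not tested. With genotype alone in the model and any library left out, neither Sesn2 (edgeR, adjusted p from 0.186) nor Ppp1r15a (from 0.0639) was called.

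Ddit4, also known as REDD1, stood at 8.76, 16.7, 14.6 and 10.6 CPM, higher in the 2 libraries in which more genes had a count. It was higher under the KO label in group 2 (ratio 1.67, 1.27 to 2.20) and lower in group 3 (0.636, 0.487 to 0.829). Eif4ebp1, which blocks cap-dependent translation when mTORC1 is off, stood at 15.6, 12.6, 16.3 and 16.7 CPM, with a fitted effect of 0.23 (SE 0.26). Vldlr, a lipoprotein receptor, had 21, 9, 39 and 14 counts. It was 2.21-fold higher under the KO label in group 2 (1.27 to 3.95), and in group 3 the ratio was 1.33 (0.537 to 3.49).

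The transporters moved in opposite directions: Slc3a2 rose, Slc1a5 fell, and Slc38a2, Slc7a5 and Slc7a1 did not pass. Slc3a2 (ENSMUSG00000010095, chromosome 19, 8706882 to 8723369) encodes the CD98 heavy chain, which carries SLC7A5 and other light chains to the surface. It stood at 239, 235, 387 and 383 CPM, close between populations and apart between genotype labels. The ratio was 1.62 in group 2 (1.54 to 1.71) and 1.63 in group 3 (1.54 to 1.72), the ratio of the 2 being 1.003 (0.930 to 1.08). The fitted effect was 0.70 (SE 0.14; edgeR, adjusted p 9.23e-05; DESeq2, adjusted p 5.91e-04), and the call was lost with any library left out and genotype alone in the model (edgeR, adjusted p 0.101 to 0.309), where the fitted effect was 0.69 to 0.71. Its light chain Slc7a5, which carries leucine and other large neutral amino acids, stood at 15.6, 19.5, 19.7 and 17.96 CPM, a fitted effect of 0.11 (SE 0.24).

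Slc1a5 (ENSMUSG00000001918, chromosome 7, 16781340 to 16798274) encodes ASCT2, a glutamine and neutral amino acid exchanger. It had 1705, 1361, 1099 and 911 counts, or 162, 167, 124 and 95.7 CPM. The KO libraries were both below the WT libraries. The ratio was 0.766 in group 2 (0.710 to 0.827) and 0.573 in group 3 (0.526 to 0.624), so the ratio in group 3 was 0.748 of that in group 2 (0.667 to 0.839). The fitted effect was -0.59 (SE 0.15; edgeR, adjusted p 0.00484), with an adjusted p of 0.0993 by DESeq2 and 0.00364 by limma-voom. With any library left out and genotype alone in the model it was not called (edgeR, adjusted p 0.105 to 0.738). Slc38a2, the amino acid starvation-induced carrier SNAT2, stood at 304, 321, 362 and 406 CPM. Both KO values were above both WT values, with ratios of 1.19 (1.13 to 1.25) and 1.27 (1.20 to 1.33), and it was not called (fitted 0.30, SE 0.14; edgeR, adjusted p 0.318). Slc7a1, a carrier of cationic amino acids, stood at 16.8, 16.7, 13.6 and 18.7 CPM.

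None of the 7 measured enzymes passed the test (0 of 7, also with DESeq2 and limma-voom, and 0 at an unadjusted edgeR p under 0.05), with fitted log2 effects from -0.04 for Psph to 0.36 for Gpt2. Phgdh stood at 230, 253, 237 and 281 CPM, a fitted effect of 0.10 (SE 0.15). Psat1 and Psph, the next steps of serine synthesis, stood at 74.7, 64.9, 64.3 and 76.5 CPM and at 89.5, 72.6, 88.0 and 69.5 CPM. In none of the 3 did the KO libraries stand apart from the WT libraries. Shmt2 and Mthfd2, which pass the serine carbon to mitochondrial folate, had fitted effects of 0.06 (SE 0.16) and 0.33 (SE 0.22). Mthfd2 was the only enzyme with ratios above 1 and intervals excluding 1 in both populations, 1.30 (1.09 to 1.55) and 1.22 (1.01 to 1.46). Aldh18a1, which starts proline synthesis from glutamate, had an effect of 0.22 (SE 0.18). Gpt2, mitochondrial alanine aminotransferase, had 15, 37, 25 and 38 counts, lowest in WT group 2.

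The 7 tRNA synthetases were abundant and none passed the test (0 of 7, also with DESeq2 and limma-voom; 1, Aars, at an unadjusted edgeR p under 0.05). Their summed RPKM was 359, 392, 392 and 393. Sars, the seryl enzyme, stood at 171, 175, 181 and 175 CPM, within 1.06-fold between genotype labels in both populations. Aars, the alanyl enzyme, stood at 119, 139, 168 and 159 CPM, both KO values above both WT values. Its ratio was 1.41 (1.31 to 1.52) in group 2 and 1.14 (1.06 to 1.24) in group 3, and its fitted effect 0.34 (SE 0.15; edgeR, adjusted p 0.242). Gars, the glycyl enzyme, stood at 146, 144, 134 and 152 CPM. Wars, the tryptophanyl enzyme, stood at 43.3, 74.1, 54.8 and 61.5 CPM, lowest in WT group 2 and highest in WT group 3. Fitted effects of Cars, Tars, Wars, Nars and Gars, the enzymes for cysteine, threonine, tryptophan, asparagine and glycine, lay between -0.02 and 0.18.

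From group 2 to group 3, the later step of selection, no member passed the edgeR test over both genotypes, which called 2.21% of all measured genes higher and 1.14% lower in group 3. DESeq2 called 0 members (0.801% of all measured genes higher, 0.312% lower), as did limma-voom (1.95% and 0.937%). An unadjusted edgeR p under 0.05 was found for 4 members, Trib3, Ppp1r15a, Shmt2 and Wars, all higher in group 3, against 10.7% of all measured genes. In WT, Trib3 was 2.83-fold (1.496 to 5.61) and Gpt2 3.18-fold (1.70 to 6.23) higher in group 3, 2 members of 31 past 2-fold (6.24% of all measured genes), and 0 were lower (2.47%). Under the KO label 0 were higher past 2-fold (2.26%) and 2 were lower (7.14%): Nupr1 stood at 0.232 of its group 2 level (0.0680 to 0.636) and Vldlr at 0.333 (0.167 to 0.627). Nupr1 is measured only through KO group 2, the denominator of this fold, and at 10 CPM neither gene is kept. Ppp1r15a was higher in group 3 under both labels, 1.23-fold (1.18 to 1.29) in WT and 1.34-fold (1.29 to 1.38) under KO. Psph was lower under both, at 0.812 (0.731 to 0.900) and 0.790 (0.711 to 0.877). The genotype and step comparisons share libraries, so their folds are not independent.

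Other genes of the pathway mostly did not pass the genotype test. Of 16 genes for eIF2 kinases, eIF2 and eIF2B, 0 were called (0 also with DESeq2 and limma-voom, 2 at an unadjusted edgeR p under 0.05), and the same held for 27 measured genes of amino acid sensing by mTORC1, with 2 at that unadjusted p. Of 13 further cytosolic tRNA synthetases, 0 were called by any of the 3 tools and 0 had an unadjusted edgeR p under 0.05, and their median fitted effect was 0.00. Of 17 mitochondrial synthetases Lars2 alone was called, from 18.4, 25.8 and 24.2 CPM to 126 CPM in KO group 3 only. Its adjusted p was 0.987 by DESeq2 and 1.32e-11 by limma-voom. Of 19 measured other ATF4 targets 3 rose and 0 fell by edgeR: the repressor Nfil3 by 1.20 (SE 0.23), the growth arrest gene Gadd45a by 0.85 (SE 0.18) and the autophagy receptor Sqstm1, also an NRF2 target, by 0.43 (SE 0.14). The same 3 were called by limma-voom, but Sqstm1 was not called by DESeq2 (adjusted p 0.144). Nfil3 stood at 15.0, 11.7, 34.4 and 26.9 CPM, Gadd45a at 39.8, 35.2, 63.8 and 71.2 CPM, and Sqstm1 at 306, 397, 437 and 503 CPM, each with both KO values above both WT values. Of 17 measured relatives of the members Trib2 rose by edgeR, by 0.55 (SE 0.15), and 0 fell. Trib2 was also called by limma-voom (adjusted p 0.00623) but not by DESeq2 (adjusted p 0.121). Trib1 and Slc38a1 are on this list of relatives and on that of other targets.

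The called members lie apart in the genome, with Cebpb and Trib3 on chromosome 2, Sesn2 on 4, Ppp1r15a and Slc1a5 on 7 and Slc3a2 on 19, and none on chromosome 6, which holds Uba3. Within 1 Mb of them 2 other genes were called for genotype near Trib3, 2 near Sesn2, 1 near Ppp1r15a, 1 near Slc1a5 and 0 near Cebpb and Slc3a2.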

How the data were processed

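The members and gene lists were chosen with earlier results of these data known. The authors deposited counts per Ensembl gene for 4 libraries and an RPKM table for each. Reads were aligned to mm10 with TopHat2 2.0.12, per the submitters' processing notes. The counter, its annotation and its strand setting are not given in the sources used here. The deposited RPKM equal the deposited counts over the library total and a gene length that is the same in every library. Symbols and coordinates came from GENCODE M21 (mm10), which matched 34490 of 35275 genes; the rest held at most 0.128% of a library's counts and stayed in the totals.

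Genes with 2 CPM in at least 1 library were kept (12490). edgeR 4.0.16 (R 4.3.3) gave TMM factors and the quasi-likelihood test, with full library totals, sorted group plus genotype in the model, 1 residual degree of freedom and a common dispersion of 0.0288; standard errors come from its F statistic. No gene kept a spread of its own, so folds that differ between the 2 populations were not penalised gene by gene. Ratios between 2 libraries carry exact conditional binomial intervals (95%), and log2 ratios used for medians a pseudocount of 0.5 CPM. The ratio of 2 ratios has an exact conditional interval. All intervals cover counting error only, and p-values do not measure the spread between mice. Both procedures were run on data simulated under their own error models, which cannot check for the spread between mice. Alternatives were DESeq2 1.42.0, limma-voom (limma 3.58.1), other scalings, filters, fold thresholds and models, and each library left out. Members called by any rule, and the 3 highest of each role by RPKM, are given in every library; other list genes only where called, at most 4 per list. For 1 member a further promoter match is not reported here.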

Additional observations from a re-analysis of the deposited data

Results flagged for a closer look

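Of the 31 measured members, 3 had genotype ratios on opposite sides of 1 in the sorted groups, with both counting intervals excluding 1. This share is close to that of all measured genes (9.5%), so it does not set the members apart. For Ddit4 the ratio of KO over WT in group 3 was 0.382 of that in group 2 (0.259 to 0.562). For Wars it was 0.655 (0.550 to 0.781), with ratios of 1.27 in group 2 and 0.831 in group 3. For Psat1 it was 1.37 (1.17 to 1.60), with ratios of 0.861 and 1.18. With 1 library per group the differences were not tested. Ddit4 was higher in WT group 3 and KO group 2, the libraries in which more genes had a count.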

How the results depend on the processing

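No paired analysis was possible because each group holds 1 library and the labels carry no replicate numbers. For the genotype effect, 5 members were higher and 1 lower with edgeR; limma-voom gave 3 and 1, DESeq2 3 and 0, and a model without sorted group 1 (Cebpb) and 0. With each library left out in turn and genotype alone in the model (the lone library is assumed to vary like the others), 1 to 2 were higher and 0 to 0 lower: Cebpb was called in 4 of 4 such fits (adjusted p 0.00929 to 0.0499) and Trib3 in 1 (0.0203 to 0.558), without WT group 3, while Sesn2 (0.186 to 0.723), Ppp1r15a (0.0639 to 0.952), Slc3a2 (0.101 to 0.309) and Slc1a5 (0.105 to 0.738) were called in 0. Sesn2 was also lost with edgeR's own filter, with 10 CPM and with no filter. With 10 CPM the members past 2-fold were 2 higher in group 2, 1 higher from group 2 to group 3 in WT and 0 lower in KO, since the scarce Atf3, Nupr1, Vldlr and Gpt2 dropped out. At 1.5-fold, 9 were higher in group 2, 5 higher and 2 lower in group 3, and 4 higher from group 2 to 3 in WT. No share over all genes was worked out at 1.5-fold, with no filter or with genotype alone in the model. Those counts do not set the members apart. With no filter, 2 were lower (Slc1a4, Stc2) and 4 higher (Atf5 added) in group 3, 1 was lower (Atf5) and 3 higher (Stc2 added) from group 2 to 3 in WT, and 3 were lower (Pycr1 added) in KO; the added members had 16 counts or fewer in each library. No called member changed direction under any alternative listed in the processing notes. Depth limits what can be said of the 6 members under 2 CPM, and of Atf3, Nupr1, Vldlr and Gpt2.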
